A study of Homo sapiens with 6 samples.

Results

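The control arm of an RNA-seq experiment on 8505C cells is described here: the 3 libraries, of 6 in the series, from cells that received a control siRNA (siCtrl). 8505C is an established cell line from an anaplastic thyroid carcinoma (ATC), and the labels give its genotype as WT and the sampling time as 24 h. The other 3 libraries came from cells transfected with siRNA against NUF2, a kinetochore protein, and their levels are not described. Members were chosen by the sample labels alone. The libraries were poly(A)-selected, and nothing in the labels says whether they came from separate cultures, so the spread between them may be technical. The line grew in RPMI-1640 with fetal bovine serum as a culture of a single cell line. Transfection itself was shared by all 3 libraries, and no untransfected cells are analysed here.

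ATC is the undifferentiated form of thyroid carcinoma. Normal thyroid follicular cells are epithelial cells that take up iodide, build thyroglobulin and store thyroid hormone, under the control of the transcription factors NKX2-1, PAX8, FOXE1 and HHEX. ATC is known for the loss of this programme and for traits of mesenchymal cells, such as vimentin in the cytoskeleton and low E-cadherin. Levels below are FPKM, which correct for the length of a transcript and the depth of a library and so allow genes to be set side by side, and a level given with ± is the mean and SD of the 3 libraries. A mean FPKM of at least 1 is used as the line between expressed and low genes.

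The deposited counts summed to between 63484734 and 69755291 per library. At this depth a count of 0 allows up to 3 counts, which is between 0.0430 and 0.0473 CPM (counts scaled to library size) per library, for counting error only. The libraries correlated with a Pearson r between 0.974 and 0.979 over the log2(FPKM + 1) of 11778 expressed genes, a correlation across genes, which are not independent replicates. Chi-square per degree of freedom between pairs of libraries was between 58.9 and 71.0, so no library was a copy of another. For a given gene, the count per FPKM differed between libraries by a fixed factor within about 0.2% for 90% of genes (5th to 95th percentile, 0.998 to 1.002), so the deposited counts and FPKM are not separate measurements.

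Each library had genes whose counts were far lower in the others. A gene stood out in a library when it reached at least 50 counts there and at least 5 times the CPM of both other libraries, a rule chosen after the values were seen. By this rule 80 genes were higher in replicate 1, 30 in replicate 2 and 56 in replicate 3. They made up 0.0214%, 0.0146% and 0.0822% of the counts of those libraries. In replicate 2 they included SULF1, an extracellular sulfatase, with 144, 875 and 94 counts and the BMP antagonist GREM1 with 14, 219 and 30 counts. Of the 271 genes higher or lower in a single library by the same fold, 42.4% overlapped another gene on the same strand. Among genes that reached 50 counts in a library the share was 27.1%. ZBED6, with 1077, 1189 and 7862 counts, was among those of replicate 3, and its locus is described below. How many of these genes reflect reads split between overlapping models was not tested.

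Replicate 1 held transcripts of blood cells. HBB, a globin of red cells, had 1303, 4 and 0 counts in replicates 1, 2 and 3. The alpha globin genes HBA2 and HBA1 had 738, 0 and 0 counts and 612, 0 and 0 counts, and as near-identical copies they share reads. HBA2 was thus at least 224-fold higher by CPM in replicate 1 than in either other library. The same library stood alone for LYZ, the lysozyme of myeloid cells, with 1039, 0 and 0 counts, for PTPRC, the leukocyte antigen CD45, with 389, 4 and 0 counts, and for S100A9, a neutrophil and monocyte protein, with 369, 0 and 0 counts. B and T cell transcripts were present there as well, with 42, 0 and 0 counts for MS4A1 and 25, 0 and 0 counts for CD3E. Of 9 leukocyte markers with a row, 9 had a count in replicate 1, 5 in replicate 2 and 3 in replicate 3. Their summed level was 11.9, 2.43 and 2.30 FPKM, and CD14, which was even at 2.103, 2.23 and 1.99 FPKM, gave most of the sum in replicates 2 and 3. Erythroid markers summed to 32.5, 0.0369 and 0 FPKM. Genes annotated to the immune response made up 18.8% of the 80 genes and 10.7% of the 56 genes higher in replicate 3. The share was 0% of the 30 genes higher in replicate 2 and 1.09% of the genes that reached 50 counts in a library. Of the 80 genes, 45 had 0 counts in both other libraries and so reached 50 counts in replicate 1 alone. In bulk RNA, more cells of a type and more RNA per cell cannot be told apart. Where these transcripts came from was not tested, and no blood cell marker is read below as a feature of 8505C cells.

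Replicate 1 in turn had fewer counts of fibroblast collagens, which the other libraries held at a low level. COL1A2 had 0, 653 and 928 counts, COL3A1 had 40, 635 and 737 counts and COL1A1 had 152, 653 and 974 counts. These genes encode the fibrillar collagens I and III. The proteoglycan gene DCN showed the same order with 16, 160 and 177 counts. The 7 fibroblast markers summed to 0.737, 3.46 and 3.98 FPKM, and none of the 7 averaged 1 FPKM or more. Without replicate 1, COL1A1 and COL3A1 passed that line.

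Replicate 3 stood apart by interferon-stimulated genes. Cells that sense foreign nucleic acid secrete type I and type III interferons, which switch on these genes through a complex of transcription factors that holds IRF9 and binds a promoter element with the core GAAANNGAAA. IFNB1, which encodes interferon beta, had 0, 0 and 134 counts, and IFNL1, which encodes a type III interferon, had 0, 0 and 138 counts. Against a floor of 3 counts per library, IFNB1 was at least 48.9-fold and IFNL1 at least 50.4-fold higher by CPM in replicate 3. IFNB1 and IFNL1 transcripts were not detectable in replicates 1 and 2 at this depth.

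Effector genes followed the same order. ISG15, a ubiquitin-like modifier, was at 12.1, 11.8 and 77.9 FPKM. The RNA-binding IFIT proteins were highest in replicate 3, with IFIT3 at 10.98, 9.62 and 45.3 FPKM and IFIT2 at 1.79, 2.54 and 16.2 FPKM. IFI44 reached 2.06, 0.842 and 21.1 FPKM and OASL, a relative of the oligoadenylate synthetases, 0.201, 0.363 and 12.2 FPKM. In each of these genes replicate 3 lay above both other libraries. The RNA sensor RIG-I, listed under the older symbol DDX58, was at 3.19, 2.65 and 10.9 FPKM.

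Other members of the list did not share that order. IRF9 was at 1.66, 1.43 and 1.496 FPKM and IRF7 at 1.74, 1.41 and 1.37 FPKM, and MX1, an antiviral GTPase, stayed at 0.511, 0.625 and 0.561 FPKM. IFI44L was highest in replicate 1, with 683, 179 and 272 counts. Of the 19 interferon-stimulated genes, 11 were highest in replicate 3, 7 in replicate 1 and 1 in replicate 2. Of all genes averaging 1 FPKM or more, 30.7% were highest in replicate 3, 32.0% in replicate 1 and 37.3% in replicate 2. Among 26 housekeeping reference genes, 15 were highest in replicate 3, so the count of 11 does not by itself set the interferon list apart. The list summed to 66.1, 59.7 and 231 FPKM. Its mean sum was 119 FPKM with replicate 3 and 62.9 FPKM without it. The chemokine genes CCL5, at 0.341, 0.429 and 22.9 FPKM, and CXCL10, at 0.346, 0.111 and 2.56 FPKM, were highest in replicate 3 too.

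**Figure D1:**
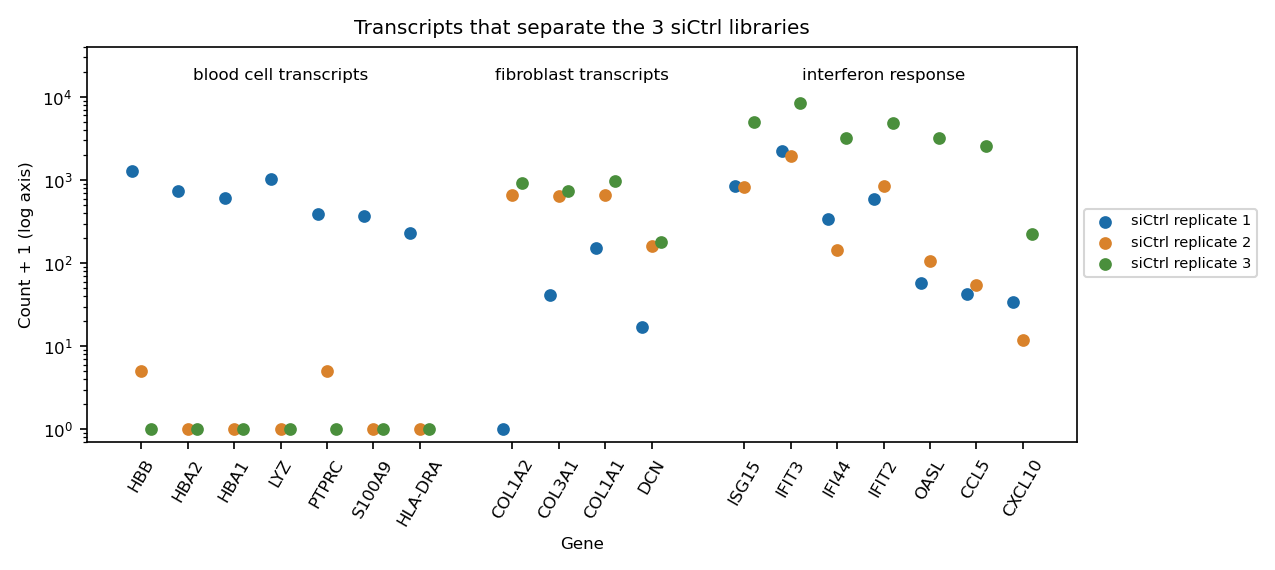
Counts plus 1 on a log axis (vertical) of 18 genes in the 3 siCtrl libraries (colours), grouped as blood cell, fibroblast and interferon response transcripts, with 1 point per library. The genes shown were chosen after their values were seen. Replicate 1 holds the blood cell transcripts and is lowest for the fibroblast transcripts shown. Replicate 3 is highest in each of the 7 interferon response genes shown. Of the 19 listed interferon-stimulated genes, 11 were highest in replicate 3, 7 in replicate 1 and 1 in replicate 2.

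Promoters of members that were highest in replicate 3 are shown for their interferon element. GAAANNGAAA was searched on both strands, overlapping matches included, in RefSeq windows of 300 bases from 250 before to 50 after each start. Of the 19 interferon-stimulated genes of the list, 13 had a window. The element occurred in 3.57% of 35116 windows and in at least 1 window of 9 of those 13 genes. Some of these genes have more than 1 window, so a share of genes and a share of windows are not on the same base. The 250 bases before the start are printed 5′ to 3′ in the direction of the gene, with capitals for each match on either strand (GRCh38.p14, all on the plus strand). A match is a description of the letters and not a binding site. DDX58, IRF1, IFNB1 and CXCL11, whose windows held no match, were also highest in replicate 3. Only windows with a match are printed.
ISG15, chr1:1013247-1013496: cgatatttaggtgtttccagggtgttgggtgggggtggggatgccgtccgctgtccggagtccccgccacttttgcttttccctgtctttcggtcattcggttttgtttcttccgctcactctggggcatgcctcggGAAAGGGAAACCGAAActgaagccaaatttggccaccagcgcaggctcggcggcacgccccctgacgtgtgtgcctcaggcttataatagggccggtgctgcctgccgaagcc
IFIT1, chr10:89392373-89392622: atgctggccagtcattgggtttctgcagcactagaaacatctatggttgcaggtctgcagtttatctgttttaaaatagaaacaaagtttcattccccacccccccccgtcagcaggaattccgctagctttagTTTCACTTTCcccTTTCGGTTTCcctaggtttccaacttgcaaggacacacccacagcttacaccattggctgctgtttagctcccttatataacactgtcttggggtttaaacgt
IFIT3, chr10:89327747-89327996: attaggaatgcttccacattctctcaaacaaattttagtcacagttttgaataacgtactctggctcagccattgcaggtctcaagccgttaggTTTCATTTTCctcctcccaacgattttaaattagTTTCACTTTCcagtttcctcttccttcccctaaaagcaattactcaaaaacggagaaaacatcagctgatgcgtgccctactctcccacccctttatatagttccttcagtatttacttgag
IFI44, chr1:78649539-78649788: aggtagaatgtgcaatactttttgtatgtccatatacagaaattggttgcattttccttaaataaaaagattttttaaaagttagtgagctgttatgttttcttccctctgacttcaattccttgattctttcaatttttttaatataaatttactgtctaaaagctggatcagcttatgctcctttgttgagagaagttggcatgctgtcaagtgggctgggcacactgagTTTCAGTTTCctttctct
In ISG15 the matches began 113 and 107 bases before the start and overlapped, in IFIT1 116 and 103 bases, in IFIT3 156 and 122 bases, and in IFI44 18 bases before it. IFIT3 and IFI44 have another RefSeq start further along, whose window also held the element. IFIT1 itself was at 2.08, 2.13 and 8.93 FPKM. MX1, IFI44L and OAS3 held the element too, and were not highest in replicate 3. OAS3 held 2 matches and was at 4.58, 2.54 and 4.19 FPKM.

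Across the whole table, 11778 of 32985 genes (35.7%) had a mean FPKM of at least 1. Every gene with a row had at least 1 count in some library of the series, and 2989 genes had none in the 3 siCtrl libraries. Expressed genes spread over 7790 at 1 to 10 FPKM, 3675 at 10 to 100, 291 at 100 to 1000 and 22 at 1000 or above. In each of the 3 libraries 11016 genes were at 1 FPKM or above, and another 1503 were so in some libraries but not in all. Nuclear protein-coding genes made up 10335 of the expressed genes, which is 61.1% of those with a row, and lncRNAs 649, which is 7.92% of theirs. Counts of expressed members in lists of protein-coding genes below stand beside that 61.1%. The expressed lncRNAs were low, with a median of 1.87 FPKM against 6.69 FPKM for expressed nuclear protein-coding genes.

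The most abundant transcripts came from mitochondria. The 13 mitochondrial protein-coding genes, which encode subunits of the respiratory chain and ATP synthase, ranged from 1086 ± 104 FPKM for MT-ND3 to 9319 ± 2378 FPKM for MT-ATP8. They took 23.3%, 19.97% and 19.1% of the summed FPKM, but 6.22%, 5.21% and 5.05% of the counts. All 13 were highest in replicate 1 except MT-CO2, at 7329.7, 7623 and 7423 FPKM. MT-ATP8 overlaps MT-ATP6 and is very short, so its FPKM is the less certain of the pair. MT-ND4L, which is also short and overlaps MT-ND4, varied most of the 13 relative to its mean, at 4596, 2475 and 1823 FPKM. The 10 most abundant genes together held 20.1% ± 1.97 (SD, n = 3) of the summed FPKM.

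The highest nuclear gene was MMP1, the interstitial collagenase (chr11:102789919-102798160, minus strand, GRCh38). It stood at 4156, 3691 and 3558 FPKM, above GAPDH and each ribosomal protein gene. After it came TMSB10, a thymosin that binds actin monomers, at 2883, 2828 and 2835 FPKM, GAPDH at 1586, 1503 and 1544 FPKM and the elongation factor gene EEF1A1 at 1493, 1316 and 1305 FPKM. The gaps between MMP1, TMSB10 and GAPDH were larger than the spread between libraries. FTL, the ferritin light chain, at 1332, 1051 and 1338 FPKM overlapped both EEF1A1 and RPS12 in its range, so its place in the order is not set by these data. MTATP6P1, a nuclear copy of mitochondrial sequence, was listed at 1257 ± 73.3 FPKM and shares reads with MT-ATP6. Of the 20 highest nuclear genes of each library, 18 were shared by all 3, and of the 100 highest genes 86 were.

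**Figure D2:**
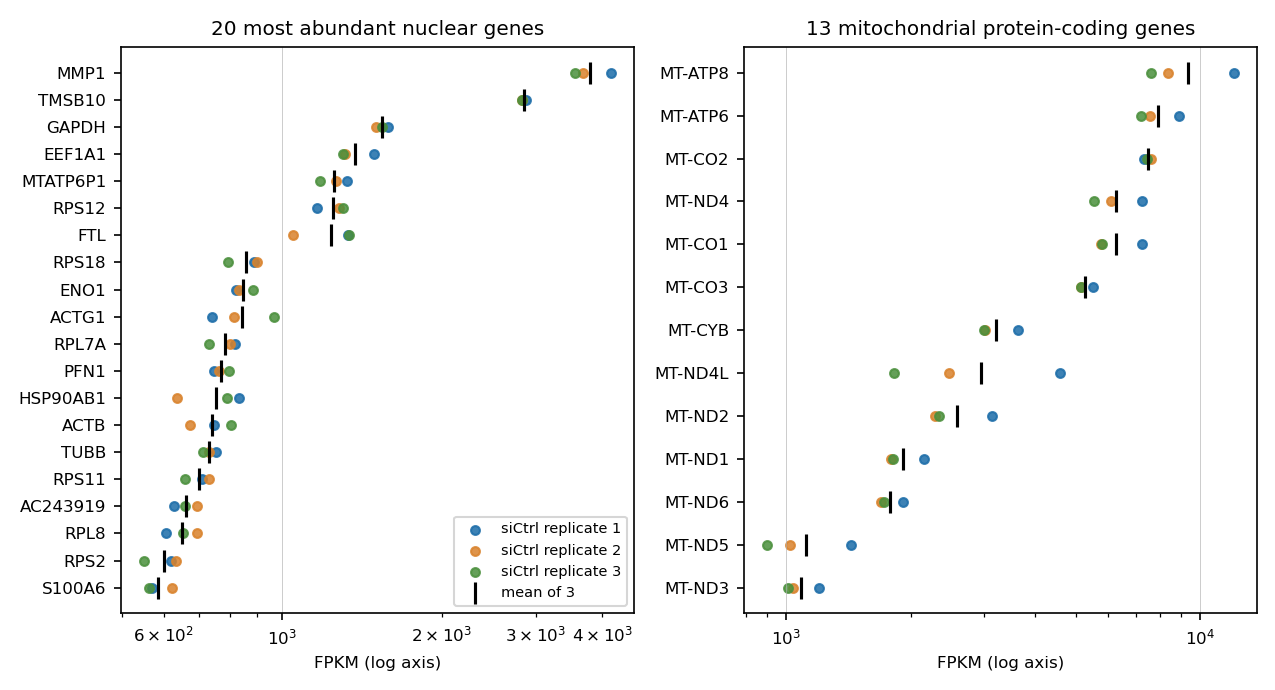
FPKM on a log axis (horizontal) of the 20 most abundant nuclear genes (left) and the 13 mitochondrial protein-coding genes (right), with 1 coloured point per siCtrl library and a black bar for the mean. MMP1 lies between 3558 and 4156 FPKM, above every other nuclear gene in each library.

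Genes of the translation machinery and the cytoskeleton filled the next ranks. Of 86 cytosolic ribosomal protein genes with a row, 85 were expressed and 84 were at 10 FPKM or above, with a median of 225 FPKM. Their median coefficient of variation (CV, SD over mean) was 0.0627. Actin and tubulin were led by the cytoplasmic forms, with ACTG1 at 841 ± 116 FPKM, ACTB at 741 ± 65.9 FPKM and TUBB at 732 ± 19.7 FPKM. TUBB3, a neuronal tubulin that many tumour lines also make, was at 21.02, 12.6 and 20.8 FPKM. The muscle actins ACTA2, ACTC1, ACTA1 and ACTG2 were each under 1 FPKM. Each of 26 housekeeping reference genes was expressed, 25 of them at 10 FPKM or above, and their median CV was 0.0657.

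Of 5 thyroid transcription factors 2 were expressed, beside 61.1% of nuclear protein-coding genes. NKX2-1 (chr14:36516392-36520232, minus strand), the thyroid and lung factor, was at 14.6, 19.5 and 21.5 FPKM, and HHEX at 6.32, 6.31 and 5.16 FPKM. PAX8, which drives thyroglobulin in follicular cells, was low at 0.641, 0.389 and 0.694 FPKM, and FOXE1 had 0, 8 and 7 counts. GLIS3 was at 0.495 ± 0.167 FPKM. NKX2-1 was above HHEX in each library, and both were above PAX8, which was above FOXE1.

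Genes that make thyroid hormone were near 0. TG, the hormone precursor, had 0, 0 and 12 counts, and SLC5A5, the iodide importer, 4, 0 and 4 counts. IYD, which recovers iodide, had none in any library. Of the 12 genes of hormone synthesis and handling with a row, 11 were under 0.1 FPKM. TSHR and DUOXA2 were not analysed here. Markers of calcitonin-producing parafollicular cells and of neuroendocrine cells were low as well, with 0 of 7 expressed and CALCA at 0 counts. The cells labelled as thyroid cancer thus expressed 2 of 5 thyroid transcription factors, with most hormone genes near 0.

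Epithelial keratins were abundant, and E-cadherin was not detected. KRT7, a keratin of simple and glandular epithelia, was at 471, 414 and 512 FPKM, and KRT18 and KRT8 were at 159 ± 20.3 FPKM and 89.4 ± 9.43 FPKM. KRT19 was lower at 8.095 ± 1.77 FPKM, and KRT20, of gut epithelium, was under 0.1 FPKM. CDH1, which encodes E-cadherin (chr16:68737292-68835537), had 0 counts in each library. EPCAM was at 0.105 FPKM with 16, 20 and 26 counts. Other junction genes were measured at moderate levels: CLDN1 at 18.02, 19.9 and 15.9 FPKM, the desmosome genes DSP at 9.07, 11.05 and 16.3 FPKM, PKP3 at 10.5, 11.3 and 15.8 FPKM and JUP at 8.99, 17.9 and 10.8 FPKM, and TJP1 at 8.45, 9.77 and 9.64 FPKM. In all 7 of 12 junction genes were expressed.

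Of the regulators of the epithelial state, KLF5 was at 20.7, 35.8 and 23.1 FPKM. The splicing factor ESRP1 and the factors ELF3, EHF and OVOL2 were each under 0.1 FPKM. Some basal and squamous genes were expressed without the basal factor TP63, at 40, 30 and 7 counts. KRT14 was at 55.7, 79.7 and 40.02 FPKM and SFN, a 14-3-3 protein of stratified epithelia, at 68.9, 67.5 and 92.1 FPKM, while KRT5, the usual partner of KRT14, had 0 counts in each library. KRT17 was at 13.1, 8.06 and 24.1 FPKM. KRT14 was highest in replicate 2 and KRT17 in replicate 3.

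Mesenchymal genes stood beside the keratins. VIM, which encodes the intermediate filament vimentin (chr10:17228241-17237593), was at 521, 468 and 508 FPKM, in the same range as KRT7. NT5E, the ectonucleotidase CD73, was at 142, 123 and 126 FPKM, CD44, a hyaluronan receptor, at 70.03, 68.2 and 91.5 FPKM and CDH2, N-cadherin, at 9.41, 10.2 and 8.51 FPKM. With CDH1 at 0 counts, N-cadherin was the cadherin of the pair that was detected.

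Of 9 mesenchymal transcription factors 6 were expressed. FOXC2 led at 10.97, 15.4 and 10.2 FPKM, followed by TWIST1 at 6.06, 3.23 and 4.69 FPKM and ZEB1, a repressor of E-cadherin, at 3.32, 3.79 and 3.43 FPKM. SNAI2, SNAI1 and ZEB2 were between 1.63 and 2.64 FPKM on average, and their ranges met. TWIST2 had 0 counts. The contractile genes of smooth muscle and myofibroblasts were low, with ACTA2 at 0.467 FPKM and CNN1 at 0.0822 FPKM.

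**Figure D3:**
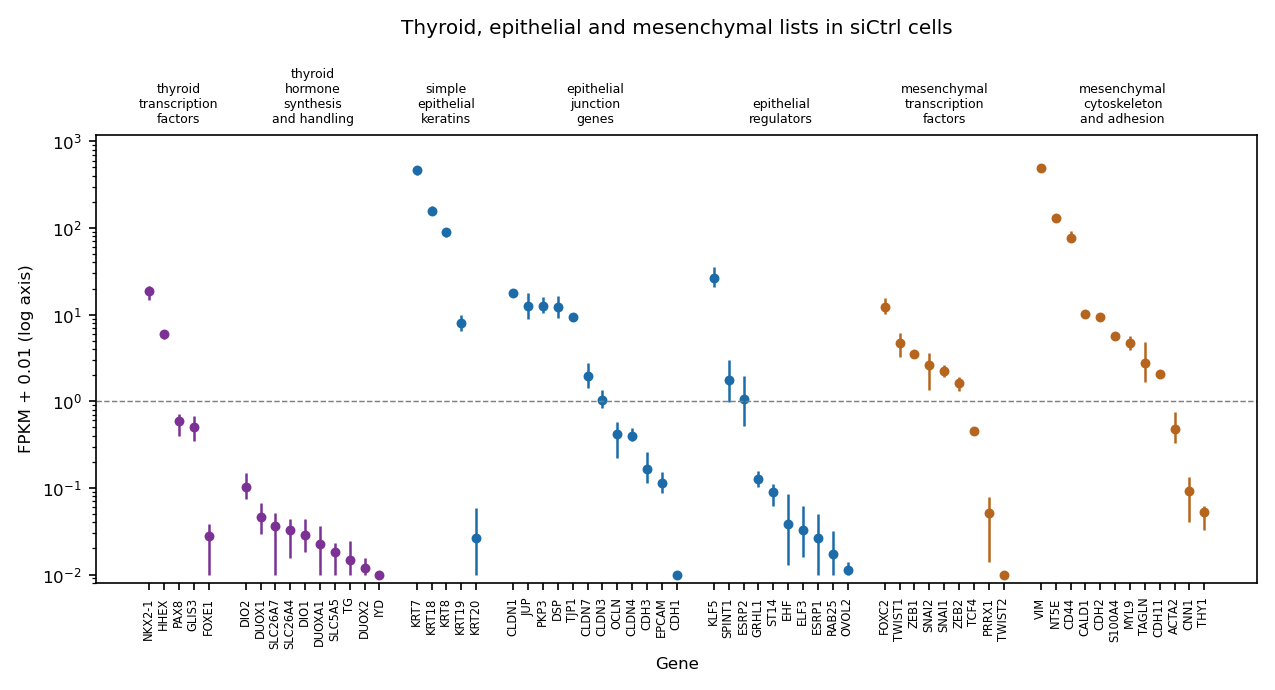
Mean FPKM plus 0.01 on a log axis (vertical) of thyroid (purple), epithelial (blue) and mesenchymal (brown) genes, with a vertical line from the lowest to the highest of the 3 siCtrl libraries and a dashed line at 1 FPKM. NKX2-1 and HHEX lie above the line, and CDH1 lies at 0.

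TGFBI, a secreted matrix protein induced by TGF-beta, was at 313, 152 and 293 FPKM and SPARC at 112, 143 and 112 FPKM. The anchoring laminin of epithelia was represented by LAMB3 at 22.03, 19.2 and 36.4 FPKM and LAMA3 at 1.53, 2.28 and 1.11 FPKM. FN1, fibronectin, was at 27.2, 22.2 and 31.3 FPKM. Of 41 collagen genes 11 were expressed and none reached 10 FPKM on average, with COL5A1 the highest at 9.43 ± 0.394 FPKM.

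Among 21 matrix metalloproteinases with a row, 7 were expressed and MMP1 was far ahead. MMP3, stromelysin 1, followed at 97.9, 59.01 and 70.05 FPKM, MMP14, the membrane-bound activator of MMP2, at 9.79, 8.68 and 10.04 FPKM and MMP2 at 6.196, 2.43 and 11.8 FPKM. MMP2 varied widely, with replicate 3 highest and replicate 2 lowest. MMP9 was under 0.1 FPKM. The plasminogen system was present with PLAU, urokinase, at 147, 112 and 146 FPKM and its receptor PLAUR at 31.4, 24.999 and 34.05 FPKM. The inhibitors TIMP1 and TIMP2 were at 130.3 ± 15.7 FPKM and 60.2 ± 3.39 FPKM.

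Receptor tyrosine kinases were led by AXL, the receptor for GAS6. AXL was at 164, 200.4 and 162 FPKM, followed by EPHA2 at 44.6, 62.2 and 57.3 FPKM. MET, the receptor of hepatocyte growth factor, at 24.1, 24.5 and 26.9 FPKM and EGFR at 22.5, 29.5 and 22.9 FPKM overlapped in their ranges. Of 29 receptors with a row 13 were expressed. RET, which is rearranged in some papillary thyroid carcinomas, had 4, 4 and 0 counts, and NTRK2 and NTRK3 were each under 0.1 FPKM. The ligands GAS6 and HGF were under 1 FPKM, at 0.581 FPKM and 0.328 FPKM.

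EGFR ligands were expressed by the same cells. HBEGF was at 20.6, 26.8 and 27.7 FPKM, EREG at 4.67, 4.105 and 3.99 FPKM and TGFA at 2.43, 1.58 and 3.26 FPKM. AREG was at 12.3, 12.4 and 38.5 FPKM, with replicate 3 above the others. EGF itself was under 0.1 FPKM. The matricellular genes CCN1 and CCN2, targets of YAP and TAZ, were the highest of the ligand list at 221, 310.4 and 356 FPKM and 201, 244 and 353 FPKM. Other growth factors were lower, with TGFB1 at 16.96 ± 1.83 FPKM, VEGFC at 10.5 ± 3.73 FPKM and VEGFA at 5.27 ± 0.558 FPKM.

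Genes that respond to the ERK pathway were expressed. FOSL1, a component of the AP-1 factor, was at 139, 145 and 149 FPKM, the second highest of 731 genes annotated as sequence-specific transcription factors, after HNRNPAB at 161 ± 18.1 FPKM. The ERK phosphatase DUSP6 was at 19.3, 15.99 and 15.1 FPKM, the feedback inhibitors SPRY2 and SPRY4 at 10.9 ± 2.22 FPKM and 8.098 ± 0.696 FPKM, and the ETS factors ETV4 and ETV5 at 18.9 ± 0.648 FPKM and 13.4 ± 0.887 FPKM. FOS and EGR1, which respond within minutes to serum or handling, varied more, at 26.1, 47.1 and 11.5 FPKM and 54.2, 119 and 79.1 FPKM. Replicate 2 was highest in both. Of 20 immediate early genes 18 were expressed. Other highly expressed transcription factors were ATF4, the factor of the amino acid and unfolded protein response, at 109.9 ± 22.9 FPKM and HIF1A at 95.9 ± 1.11 FPKM.

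Among WNT pathway genes, the antagonists DKK1 and SFRP1 stood above the ligands. DKK1 was at 94.8, 59.2 and 44.5 FPKM and SFRP1 at 51.6, 79.04 and 17.8 FPKM, and both were lowest in replicate 3. The ligands WNT5B, at 5.54, 5.31 and 7.06 FPKM, and WNT7B, at 3.44, 3.94 and 3.84 FPKM, were expressed, as 2 of 14 ligands with a row. The target gene AXIN2 was at 0.336 FPKM and LGR5 under 0.1 FPKM. In the NOTCH pathway NOTCH2 led at 9.34, 11.6 and 11.03 FPKM with JAG1 at 5.56, 4.27 and 6.001 FPKM, and NOTCH3 and NOTCH4 were under 0.1 FPKM. Hedgehog genes were low, with SHH, IHH and DHH under 0.1 FPKM and GLI3 at 1.88 ± 0.208 FPKM.

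Of 42 nuclear receptors with a row, 23 were expressed, beside 61.1% of nuclear protein-coding genes. NR2F2, also known as COUP-TFII, was the highest at 18.6, 14.7 and 14.98 FPKM, and the glucocorticoid receptor NR3C1 was even at 10.5, 10.9 and 10.4 FPKM. PPARG was at 5.87, 5.55 and 4.37 FPKM. The thyroid hormone receptor THRA was at 4.93, 5.04 and 4.16 FPKM, and THRB was under 0.1 FPKM. The estrogen receptors ESR1 and ESR2 were under 0.1 FPKM. NR2F1 was at 8.68, 19.8 and 7.33 FPKM and the clock gene NR1D1 at 5.87, 13.5 and 6.92 FPKM, and replicate 2 was highest in both.

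Inflammatory mediators were measured at moderate levels. IL24, a cytokine of the IL-10 family, was the highest of 23 cytokine and chemokine genes at 52.1, 61.9 and 70.1 FPKM. The neutrophil chemokines CXCL1 and CXCL8 were at 45.0, 24.6 and 48.3 FPKM and 15.7, 12.8 and 16.3 FPKM, and IL18 at 15.2, 15.3 and 14.3 FPKM. IL6 was at 8.004, 5.804 and 27.2 FPKM, with replicate 3 above the others. In all, 17 of 23 were expressed with replicate 3 and 14 without it.

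Antigen presentation by class I was present. B2M was at 94.8, 92.3 and 143 FPKM and the transporter TAP1 at 6.902, 4.65 and 6.73 FPKM. B2M was highest in replicate 3. The checkpoint ligand CD274 (PD-L1) was at 18.5, 31.3 and 32.1 FPKM, CD276 (B7-H3) at 18.4, 16.6 and 21.7 FPKM and CD47 at 12.98, 11.3 and 14.4 FPKM. The class II genes HLA-DRA and HLA-DRB1 had counts in replicate 1 alone, 230, 0 and 0 counts for HLA-DRA, the library that held blood cell transcripts.

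Cancer-testis genes, which are normally restricted to the germ line, were expressed from the MAGEA cluster. MAGEA3 was at 78.9, 67.9 and 79.2 FPKM, MAGEA6 at 43.3, 40.5 and 42.999 FPKM and MAGEA12 at 24.4, 27.5 and 29.1 FPKM. MAGEA3 and MAGEA6 are near-identical, so the split of reads between them is uncertain. Of 15 cancer-testis genes with a row 8 were expressed, and SSX2 and CTAG1B were under 0.1 FPKM. Oncofetal genes were led by HMGA1, a chromatin architectural factor, at 597, 522 and 370.1 FPKM, with HMGA2 at 15.7, 8.63 and 11.999 FPKM and IGF2BP2 at 19.04, 22.6 and 17.8 FPKM. TERT, the catalytic subunit of telomerase, was at 1.26, 1.55 and 0.959 FPKM. The pluripotency genes POU5F1, LIN28A and SALL4 were under 1 FPKM.

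Of 20 cyclins, cell cycle inhibitors and related genes 16 were expressed. CCND1, cyclin D1, was the highest at 115, 120.3 and 128 FPKM, followed by CDK4 at 50.9, 47.3 and 52.1 FPKM. E2F1 was at 23.99, 21.3 and 19.2 FPKM and MYC at 10.6, 10.8 and 11.1 FPKM. CCND2 was under 0.1 FPKM and MYCN had 0 counts in each library. RB1 was at 8.34, 8.21 and 8.32 FPKM. CDKN1A, the p21 inhibitor, was at 14.9, 17.5 and 29.9 FPKM, highest in replicate 3. On chromosome 9 p21, a region often deleted in cancer, CDKN2A was at 8.65, 10.7 and 7.84 FPKM and its neighbour MTAP at 5.71, 5.18 and 5.32 FPKM, and 11 of 18 genes of that neighbourhood with a row were expressed.

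The NDC80 complex, which joins kinetochores to microtubules and holds the protein the series targeted, was evenly expressed. NDC80 was at 14.4, 14.7 and 13.6 FPKM, NUF2 at 14.8, 14.5 and 12.2 FPKM, SPC24 at 11.6, 12.9 and 12.2 FPKM and SPC25 at 10.9, 12.5 and 13.1 FPKM. The ranges of NDC80 and NUF2 overlapped, as did those of SPC24 and SPC25. The magnesium transporters were ordered MAGT1 at 11.7, 12.8 and 15.2 FPKM, NIPA1 at 4.79, 5.01 and 4.80 FPKM and NIPAL1 at 1.19, 1.63 and 1.39 FPKM, with no overlap between neighbours.

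Several heat shock and redox genes were abundant. HSP90AB1 was at 753 ± 103 FPKM and HSPA8 at 424 ± 90.9 FPKM, and 13 of 14 heat shock genes were at 10 FPKM or above. HSPA5, the chaperone of the endoplasmic reticulum, was at 242, 188 and 338 FPKM. Thioredoxin, TXN, was at 543, 452 and 525 FPKM and peroxiredoxin PRDX1 at 339, 318 and 357 FPKM. Of 18 antioxidant and NRF2 target genes 17 were expressed. NQO1 was at 68.1, 41.1 and 32.8 FPKM and HMOX1 at 17.1, 6.48 and 11.1 FPKM, and replicate 1 was highest in both. The metallothionein MT2A was at 446, 369 and 595 FPKM.

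Hypoxia genes split the libraries. CA9, a carbonic anhydrase induced by HIF1, was at 13.8, 27.9 and 100.05 FPKM, highest in replicate 3. NDRG1 at 18.2, 18.3 and 36.1 FPKM, BNIP3 at 26.4, 30.1 and 46.6 FPKM and the glucose transporter SLC2A1 at 13.6, 11.3 and 23.3 FPKM were also highest there, as was LDHA at 495, 483 and 651 FPKM. VEGFA differed less, at 5.199, 4.75 and 5.86 FPKM. The 16 genes summed to 631, 645 and 945 FPKM, and 13 of them were highest in replicate 3. That library was highest in 30.7% of all expressed genes, and in 15 of the 26 housekeeping reference genes.

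Several calcium-binding proteins were abundant. S100A6 was at 569, 622 and 562 FPKM, ANXA2 at 417, 411 and 373 FPKM and ANXA1 at 194, 186 and 187 FPKM. Among annexins, 9 of 11 were expressed. LGALS1 was at 199.9, 300.4 and 269 FPKM and LGALS3, the galectin stained for in thyroid nodules, at 22.9, 21.4 and 26.8 FPKM. TFF3 and CITED1, both used as markers in thyroid tumours, had 0, 0 and 0 counts and 0, 0 and 9 counts. Of the stem cell markers CD24 was at 224, 251 and 201 FPKM and ALDH1A3 at 9.92, 8.95 and 4.65 FPKM, while ALDH1A1 was at 1.73, 1.29 and 8.96 FPKM, highest in replicate 3. The efflux pumps ABCC1 and ABCC4 were at 8.59 ± 0.511 FPKM and 4.07 ± 0.173 FPKM, and ABCB1 was under 1 FPKM.

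Of the listed long noncoding RNAs, NORAD was highest at 105, 76.05 and 75.05 FPKM. NEAT1, the scaffold of paraspeckles, was at 62.4, 41.3 and 90.2 FPKM and MALAT1 at 39.4, 35.02 and 48.2 FPKM. PTCSC3, described as a thyroid-restricted transcript at a papillary carcinoma risk locus, was at 2.89, 4.32 and 4.25 FPKM. H19, HOTAIR and MEG3 were under 1 FPKM. UCA1 was at 1.33, 0.328 and 5.61 FPKM, highest in replicate 3.

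The HOX clusters, which set position along the body axis, had 0 of 30 genes with a row at a mean of 1 FPKM. HOXA5 came nearest at 1.001, 0.9601 and 1.02 FPKM, followed by HOXA3 at 0.997, 0.851 and 0.626 FPKM, and the highest of the HOXB, HOXC and HOXD genes were HOXB9 at 0.05799 FPKM, HOXC13 at 0.2495 FPKM and HOXD1 at 0.0894 FPKM. GATA2 was expressed at 7.699, 8.42 and 7.69 FPKM. Of the SOX family 5 of 14 were expressed, beside 35.7% of all genes and 61.1% of nuclear protein-coding genes. SOX12 was at 6.98 ± 0.452 FPKM and SOX9 at 5.39 ± 0.284 FPKM. FOXM1, a factor of proliferating cells, was the highest of the forkhead genes at 23.3, 21.9 and 26.9 FPKM.

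Receptors of the senses and of immunity were low as classes. Of 88 olfactory receptor genes with a row 3 were expressed, led by OR2W3 at 12.6, 11.6 and 12.7 FPKM, and 0 of 13 taste receptors were. Of 123 immunoglobulin and T cell receptor genes 1 passed the line, IGKC, and its counts were 165, 0 and 0 in the library with blood cell transcripts and the others. Clustered protocadherins had 1 of 41 expressed, PCDHGC3 at 5.17, 3.509 and 3.73 FPKM, and potassium channels 9 of 64, led by KCNN4 at 11.5, 13.8 and 12.1 FPKM. A keratin-associated gene of hair, KRTAP2-3, was at 24.1, 32.9 and 28.4 FPKM and was the highest of 18 in its family.

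**Figure D4:**
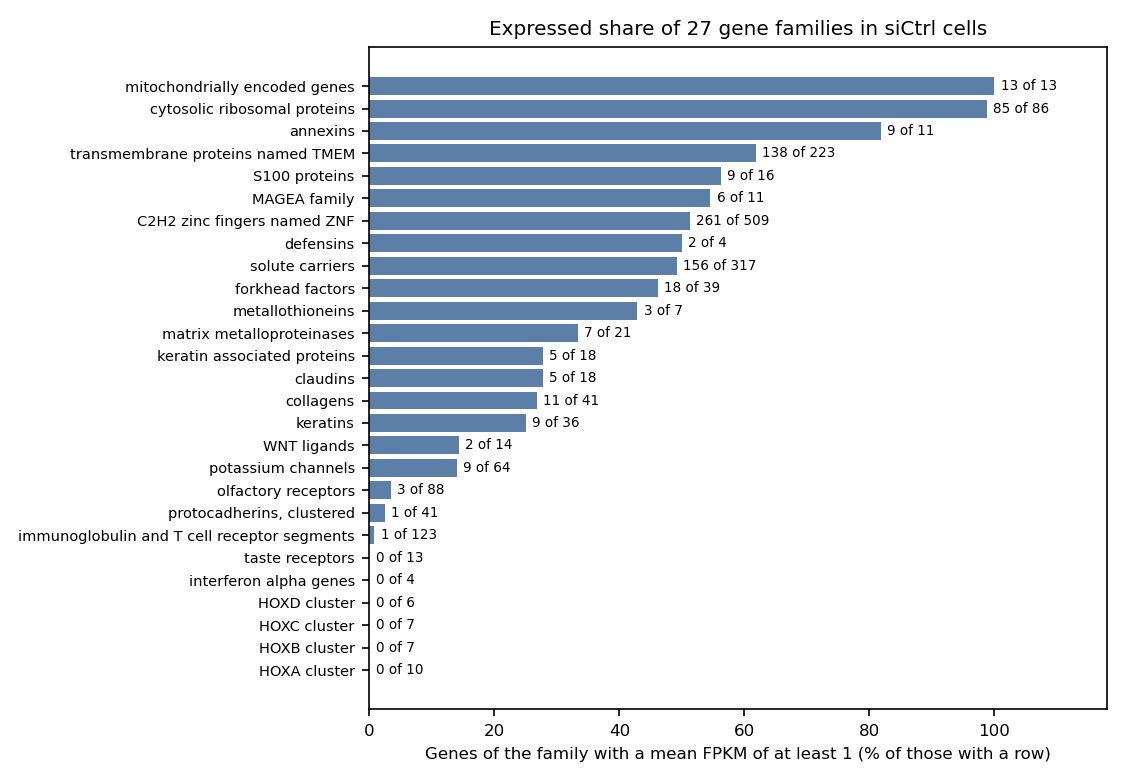
Share of each of 27 gene families with a mean FPKM of at least 1 (horizontal bars, % of the genes with a row), with the counts of genes beside each bar. Ribosomal protein genes stand at 85 of 86, and the 4 HOX clusters and the taste receptors at 0.

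Markers of other cell types were checked for the culture as a whole. Of 7 endothelial markers 1 was expressed, CDH5 at 0.762, 1.87 and 0.5899 FPKM, and it fell below the line without replicate 2. The defining endothelial genes PECAM1 and VWF were at 0.291 FPKM and 0.138 FPKM. VWF had 4, 228 and 113 counts and was lower in replicate 1, as were the fibroblast collagens above. Hepatocyte markers were expressed in 0 of 3 and muscle markers in 0 of 4, and among 5 melanocyte markers MITF alone was, at 4.28, 7.04 and 4.16 FPKM, while PMEL, DCT and MLANA were under 0.1 FPKM.

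Levels of most expressed genes stayed within 2 times between the highest and lowest library. The median CV was 0.113 over 11778 expressed genes, with quartiles of 0.0688 and 0.183. It was 0.132 at 1 to 10 FPKM, 0.0889 at 10 to 100 and 0.0742 at 100 or more. Of expressed genes 43.2% had a CV under 0.1 and 2.86% a CV over 0.5, and in 6.52% the highest library was over 2 times the lowest or a library was at 0. Below the line the spread was wider, with a median CV of 0.424 from 0.1 to 1 FPKM. Counting error alone would give expressed genes a median CV of 0.0203, and 96.4% of expressed genes had a CV above that of counting error. The biological coefficient of variation from edgeR was 0.212 over the expressed genes, and 0.178 without the genes that stood out in a single library. Despite its name this spread may be technical, as the labels do not say whether the libraries came from separate cultures.

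**Figure D5:**
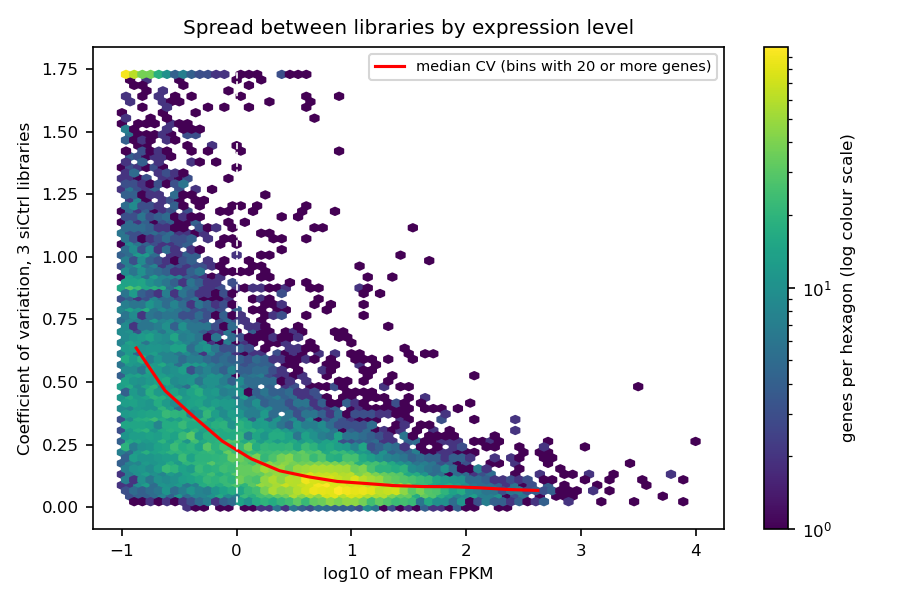
CV over the 3 siCtrl libraries (vertical) against the log10 of mean FPKM (horizontal) for genes at 0.1 FPKM or above, as hexagons coloured by the number of genes on a log scale, with a red line for the median in bins of 20 or more genes and a dashed line at 1 FPKM. The median falls from low to high levels, and the band at the top edge holds genes found in a single library.

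Among genes at 10 FPKM or above, the steadiest were PHLDA2, an imprinted gene of placental growth, at 74.3, 74.2 and 74.3 FPKM, PDCD10 at 22.96, 22.99 and 23.02 FPKM, LAPTM4A at 87.9, 87.7 and 88.1 FPKM and WDR74 at 14.7, 14.7 and 14.7 FPKM. The next 6 were DDX46, MRPS23, MT-TR, SERINC3, ATP5F1E and RAB1A. With 3 libraries, the lowest CVs of a long list are extremes of a small sample.

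Of the 10 least steady genes at that level, ISG15, CA9, IFIT3 and IL6 are named above, and each was highest in replicate 3. The other 6 were AP002990, RPL36A-HNRNPH2, SENP3-EIF4A1, TMEM189-UBE2V1, BOLA2 and FP565260. Of these, 3 are read-through loci that join a pair of neighbouring genes, and BOLA2 has a near-identical copy, BOLA2B. BOLA2 had 0, 2479 and 2555 counts and BOLA2B 4626, 2425 and 2559. Their sum had a CV of 0.101 by CPM, against 0.871 for BOLA2 alone. TMEM189-UBE2V1 had 3922, 4631 and 0 counts. Summed with TMEM189 and UBE2V1 the CPM was 465, 426 and 483, with a CV of 0.0634 against 0.875 for TMEM189-UBE2V1 alone. The sums of SENP3-EIF4A1 and RPL36A-HNRNPH2 with the genes they join had CVs of 0.0708 and 0.0305, against 0.920 and 0.964 alone. UBE2V1, EIF4A1 and RPL36A held most of these sums, so an even sum says little about the read-through rows.

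ZC3H11A and ZBED6, a pair named after its values were seen, share most of their coordinates on chromosome 1. ZC3H11A had 7215, 9194 and 17 counts and ZBED6 1077, 1189 and 7862 counts. Their summed CPM was 119, 149 and 124, with a CV of 0.125. Among the 100 expressed genes with the highest CV, 58 overlapped another gene on the same strand, against 27.4% of all expressed genes. Whether reads were split differently between overlapping models in each library was not tested over these 100 genes.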

How the data were processed

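RNA-seq of 8505C cells was analysed in the 3 siCtrl libraries of 6. Poly(A) RNA was sequenced as 2 × 150 bp pairs. Per the labels, the authors used fastp, HISAT2 and StringTie on GRCh38, with no versions, annotation or strand setting in the sources used here. The deposited FPKM are scaled by the authors for transcript length and library size, and the deposited counts are whole numbers per gene without normalization, by a tool not named. Columns were matched to samples by name. The siNUF2 counts served to see whether a gene had a count in any library, and 3 columns of siNUF2 FPKM were not used. Genes were listed in 51 lists and 27 families, and the members and lists were chosen with earlier results of these data known. Genes without a row are not analysed here, and some list members are not reported here. Named genes are the list members, the 20 highest, the top 3 of each family, and the 10 highest and lowest CVs at a mean of 10 FPKM or above. Other named genes were chosen after their values were seen, among them those that stood out in a single library and those leading a functional annotation. GENCODE 44 gave gene classes (32855 genes matched) and RefSeq the promoters. No groups were compared and no test between groups was run. Means, SDs and CVs were computed in Python 3.11.15 (pandas 2.3.3, numpy 2.4.6, scipy 1.17.1), and the biological coefficient of variation with edgeR 4.0.16 (TMM, intercept only), which was tested on simulated data. Thresholds, scaling (DESeq2 1.42.0 size factors among them) and left-out libraries were tried as alternatives.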

Additional observations from a re-analysis of the deposited data

How the results depend on the processing

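No paired analysis was possible because no groups were compared. The number of genes at a mean FPKM of at least 1 was 11778. It was 6571 at a line of 5 FPKM, and it stayed within 1.5 times the main number at 0.5 FPKM, as TPM, with at least 10 counts in each library, and without each library (11735 to 11785). The median CV of 0.113 became 0.0937 at 5 FPKM or above and 0.365 for every gene above 0, and it lay between 0.0855 and 0.0977 without 1 library, where the CV rests on 2 values. TMM factors, DESeq2 size factors and leaving out read-through loci, the last chosen after seeing the data, moved it by less than the spread between those values. The share of the 10 most abundant genes was 20.1% of FPKM, 6.94% of counts and 7.56% of FPKM without the mitochondrially encoded genes, and it was 19.1% to 20.9% without 1 library. The biological coefficient of variation of 0.212 was 0.251 with at least 10 counts in each library, 0.464 with no filter, 0.178 without the genes that stood out in a single library (chosen after seeing the data) and 0.197 to 0.222 without 1 library. The number of expressed members stayed within 1.5 times in 48 of 51 lists at 0.5 FPKM, in 26 at 5 FPKM and in 42 as TPM. Without replicate 1 it moved in 3 lists: erythroid markers from 3 to 0, leukocyte markers from 2 to 1 and fibroblast markers from 0 to 2. Without replicate 2 it moved in 2, endothelial markers from 1 to 0 and the GATA family from 2 to 1, and without replicate 3 in 0. The median log2 level of a list moved beyond the spread between libraries in 36 of 51 lists with a pseudocount of 0.1 in place of 1. At this depth, levels under 3 counts could not be told from 0.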

Other observations

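Outside the comparisons above, 389 of 1108 genes (35.1%) annotated as integral plasma membrane proteins had a mean FPKM of at least 1 in siCtrl cells. The share was 35.7% of all genes and 61.1% of nuclear protein-coding genes. Members of the class were named after their values were seen. After AXL the highest at the cell surface included CD63, a tetraspanin of endosomes and exosomes, at 129 ± 12.9 FPKM, BSG, a chaperone of lactate transporters, at 126 ± 7.89 FPKM, CAV1, the coat protein of caveolae, at 78.5, 114 and 85.02 FPKM and TM4SF1 at 69.2, 71.6 and 103 FPKM. GPRC5A, a retinoic acid-induced receptor, was at 52.7, 102 and 60.8 FPKM, highest in replicate 2. The amino acid transporters SLC1A5 and SLC38A2 were at 72.6 ± 7.26 FPKM and 66.6 ± 12.8 FPKM.

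Of 132 genes annotated with growth factor activity 59 (44.7%) were expressed, beside 61.1% of nuclear protein-coding genes. AMH, the anti-Müllerian hormone, was among the higher ones at 22.1, 46.0 and 22.9 FPKM, and KITLG, the ligand of KIT, was at 23.7, 41.5 and 15.6 FPKM, while KIT was at 0.114 FPKM. Replicate 2 was highest in both AMH and KITLG. Pseudogenes took 3.51% of the summed FPKM and 577 of 5045 were expressed. They resemble their parent genes in sequence, so their levels are uncertain.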
